A study of Sus scrofa with 6 samples.

Results

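The miR-146 family in pig has 2 mature miRNAs from separate genes, ssc-miR-146a-5p and ssc-miR-146b (ssc marks the pig), and their levels were followed here in 6 small RNA libraries of denuded oocytes. The members were taken by name, 2 of the 326 mature miRNAs that each deposited table lists. That choice was made with earlier results of these data known. Oocytes of prepubertal gilts, collected at an abattoir, were freed of their cumulus cells before RNA was extracted. Large-follicle oocytes (LO, 3 libraries) were aspirated from follicles of 3 to 6 mm through a 20-gauge needle on a 10 mL syringe, and small-follicle oocytes (SO, 3 libraries) from follicles under 2 mm through a 23-gauge needle on a 5 mL syringe, so follicle size and aspiration cannot be told apart. No treatment or genetic change is given for either group. The labels call the libraries biological replicates, and the sources used here do not say how many animals or oocytes made up a library. The tables list miRNAs only, so the oocyte's own messenger RNAs were not checked here.

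MicroRNAs guide silencing proteins to messenger RNAs mainly through the seed, bases 2 to 8. The miR-146 family is best known from innate immunity. There the transcription factor NF-kB, activated by toll-like receptors and interleukin-1, switches on the miR-146a gene. Its product represses TRAF6 and IRAK1, the adaptor and the kinase of the same pathway, and so closes a negative feedback loop.

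The sequences below show why the members are treated as 1 family and how they can be told apart. They are written 5′ to 3′ in DNA letters as deposited, and the capitals mark the seed.

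miR-146a-5p: tGAGAACTgaattccatgggtt

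miR-146b: tGAGAACTgaattccataggc

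Both carry the seed GAGAACT, and no other of the 326 listed names does. Their first 17 bases are identical. Over the 21 bases that both have, 2 positions differ, counted from the 5′ end with the miR-146a-5p base first: G18A and T21C. The same sequences with those positions in capitals show that the distinction rests on the 3′ end.

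miR-146a-5p: tgagaactgaattccatGggTt

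miR-146b: tgagaactgaattccatAggC

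A read that ends at or before base 17 would therefore match both. The sources used here do not say how such reads were assigned. Of the other 324 names, the nearest had 8 differences from either member over the first 20 bases. In the RefSeq gene table of build Sscrofa11.1, MIR146A and MIR146B lie on different chromosomes and inside no other listed gene. MIR146A neighbours PTTG1, the gene of securin, and MIR146B neighbours CUEDC2, with NFKB2, which encodes an NF-kB subunit, a few genes further along. The deposited values were made on another build, so no coordinates are given.

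miR-146a-5p was among the more abundant miRNAs of every library. Values are given as RPM, the reads a miRNA would have if the authors' total for that library were 1000000. Its level was 146, 128 and 235 RPM in LO replicates 1 to 3, from 84, 59 and 334 reads. In SO replicates 1 to 3 it was 238, 159 and 210 RPM, from 455, 306 and 459 reads. The groups overlapped widely: LO replicate 3 lay beside the highest SO library, and SO replicate 2 lay near LO replicate 1. The LO libraries had a mean of 169 ± 57.1 RPM and the SO libraries a mean of 202 ± 39.6 RPM (SD, n = 3 each). In bulk libraries such as these, less of a miRNA per cell and fewer cells that hold it cannot be told apart. Between the lowest and the highest of the 6 libraries the level differed 1.86-fold. Exact Poisson 95% intervals cover counting error only. They ran from 97.3 to 165 RPM in LO replicate 2 and from 216 to 260 RPM in SO replicate 1. In RPM these libraries thus differed by more than counting error. Listed miRNAs made 1.68% of the total in LO replicate 2 and 2.88% in SO replicate 1. Of the listed miRNA reads, miR-146a-5p held 0.761% and 0.824% in these libraries, which are close.

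Among all listed names miR-146a-5p ranked 15th to 19th in 5 libraries and 32nd in LO replicate 1. As a share of listed miRNA reads it held 0.676% ± 0.169 in LO (SD, n = 3) and 0.802% ± 0.112 in SO (n = 3). LO replicate 1 had the lowest share, 0.481%, and the other 5 libraries had 0.681% to 0.901%. Its level varied less than that of most tested miRNAs, most of which had fewer reads. Its spread about its own mean over the 6 libraries was 0.345 on the log2(RPM + 1) scale, the 16th smallest of the 104 miRNAs with enough reads to test, whose median spread was 0.569.

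miR-146b was scarce. LO replicates 1 to 3 held 1, 0 and 12 reads, which are 1.74, 0 and 8.43 RPM. SO replicates 1 to 3 held 20, 4 and 12 reads, which are 10.4, 2.08 and 5.48 RPM. Each group thus had both low and high libraries, and the ranges overlapped. The mean was 3.39 ± 4.45 RPM over the LO libraries, an SD above the mean itself, and 6.00 ± 4.20 RPM over the SO libraries (SD, n = 3 each). LO replicate 2 is the shallowest library, and its 0 reads allow up to 6.5 RPM when 3 reads are taken as the limit. At the SO mean that library would have held 2.77 reads, so its 0 does not exclude a level like that of SO. LO replicate 1, with its single read, has an exact Poisson interval of 0.0440 to 9.68 RPM and would have held 3.46 reads at the SO mean. On the log2(RPM + 1) scale miR-146b was among the most variable of the 104 tested miRNAs, with a spread of 1.2, the 101st in order from the least variable.

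**Figure D1:**
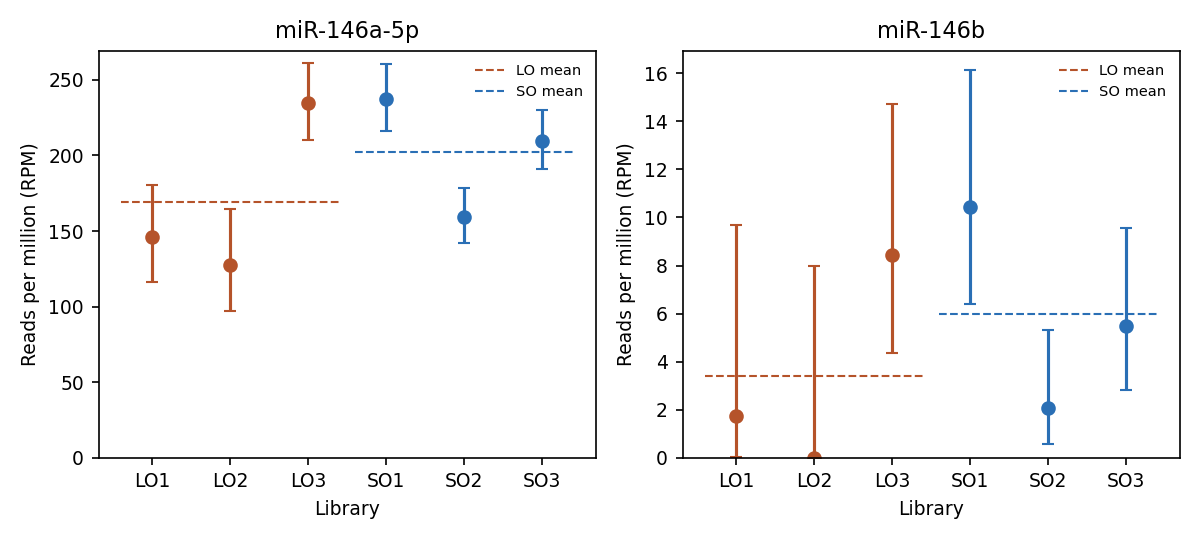
Level of miR-146a-5p (left) and miR-146b (right) in each library, in RPM on axes that start at 0; points are libraries, bars are exact Poisson 95% intervals for counting error, and dashed lines are group means. LO and SO libraries interleave in both panels, and the miR-146b intervals of LO1 and LO2 span most of the SO values.

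In the order of mean RPM over all 6 libraries miR-146a-5p took place 19 and miR-146b place 112. The next name above miR-146a-5p was miR-125a, at 202 ± 137 RPM, and the next below was miR-30e-5p, at 170 ± 76.1 RPM, beside 186 ± 47.5 RPM for miR-146a-5p itself (SD, n = 6 libraries each). Neither neighbour differed from it beyond these spreads. miR-125a was above miR-146a-5p in 2 of 6 libraries and miR-30e-5p in 1 of 6. miR-146b, at 4.70 ± 4.13 RPM, stood between the muscle miRNA miR-1 at 4.74 ± 2.44 RPM and miR-491 at 4.68 ± 4.67 RPM, each above it in 3 of 6 libraries and indistinguishable from it at this depth.

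**Figure D2:**
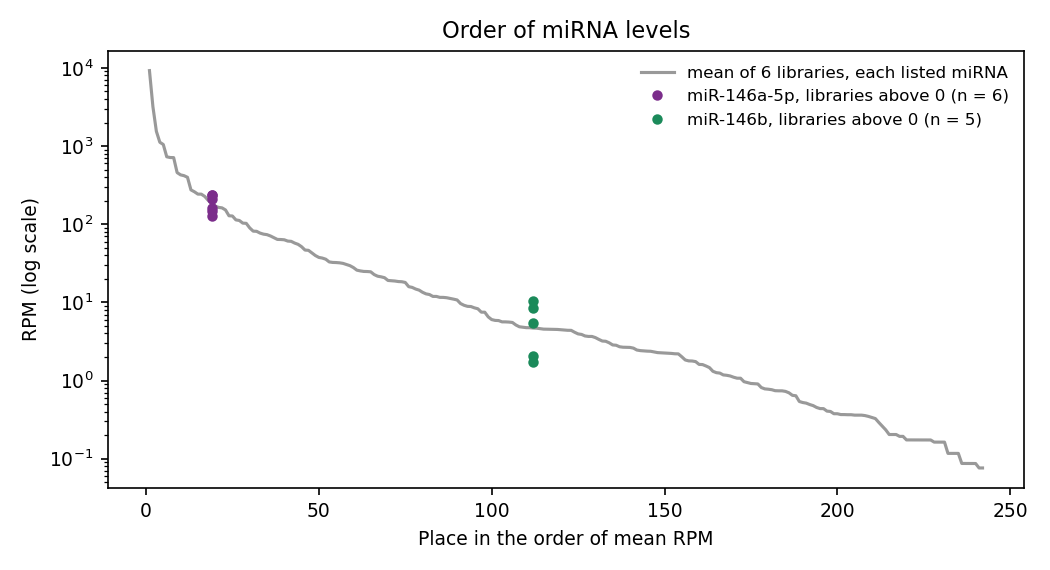
Mean RPM (log scale) of each listed miRNA with at least 1 read, in descending order, with the single libraries of the miR-146 members as points. miR-146a-5p sits at place 19 and miR-146b at place 112; the LO replicate 2 value of miR-146b is 0 and cannot be drawn on this axis.

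Only 1 arm of the miR-146a precursor was seen. The opposite strand, miR-146a-3p, is listed with the sequence below, whose capitals mark its seed, and had 0 reads in each of the 6 libraries.

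miR-146a-3p: cCTGTGAAgtttagttcttcag

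Against 1697 reads of the 5p arm, a count of 0 leaves room for at most 0.177% of the reads of both arms. Of the 9 precursors with both arms listed and at least 500 reads, miR-146a was the one with no read of its minor arm. The minor arm held 0.0969% to 12.2% of the reads in the other 8, so the limit for miR-146a overlaps the lowest of them, miR-676 at 0.0969% and miR-148a at 0.139%. No second arm of miR-146b was analysed here.

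The next question was how the reads of the family divide between its members. Reads are counted whole per miRNA and the mature forms are 22 and 21 bases long, so no correction for length was applied. miR-146a-5p exceeded miR-146b in 6 of 6 libraries. The ratio of reads was 84.0 to 1 in LO replicate 1 and 27.8 to 1 in LO replicate 3. It was 22.8, 76.5 and 38.3 to 1 in SO replicates 1 to 3. In LO replicate 2, with 0 reads of miR-146b, it was at least 19.7 to 1 when 3 reads are taken as the limit, and the exact 95% interval reaches down to 15.5 to 1. With 0.5 read added to each count, the mean log2 ratio was 5.54 ± 0.906 (SD, n = 6), a 46.4-fold excess of miR-146a-5p. An exact two-sided sign-flip permutation test over the 6 libraries gave p = 0.0312, the smallest that 6 libraries can give.

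Summed over all libraries there were 1697 reads of miR-146a-5p and 49 of miR-146b, a ratio of 34.6 to 1 (exact 95% interval 26.1 to 47.0, for counting error only). miR-146b made 2.81% of the family's reads (Clopper-Pearson interval 2.08 to 3.69).

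The balance was not distinguishable between the groups. Of the family's reads in LO replicates 1 to 3, miR-146b made 1.18% (0.0298 to 6.38), 0% (0 to 6.06) and 3.47% (1.80 to 5.98), with exact Clopper-Pearson 95% intervals in parentheses. In SO replicates 1 to 3 it made 4.21% (2.59 to 6.43), 1.29% (0.353 to 3.27) and 2.55% (1.32 to 4.41). All 6 intervals have the stretch from 2.59% to 3.27% in common. Summed by group the shares were 2.65% (1.42 to 4.49) in LO and 2.87% (2.02 to 3.95) in SO. The mean log2 ratio was 5.82 ± 1.08 over LO (SD, n = 3) and 5.25 ± 0.809 over SO (n = 3), a difference of 0.56 with an exact two-sided permutation p of 0.6, where 3 libraries against 3 cannot go below 0.1. Without LO replicate 2, whose ratio rests on the 0.5 read added to a count of 0, the difference was 0.02. At the share found in the other 5 libraries, LO replicate 2 would have held 1.71 reads of miR-146b, so its 0 lies within what its depth allows. SO replicate 2 held 4 reads where that share gives 9.71, and SO replicate 1 held 20 where it gives 10.8.

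**Figure D3:**
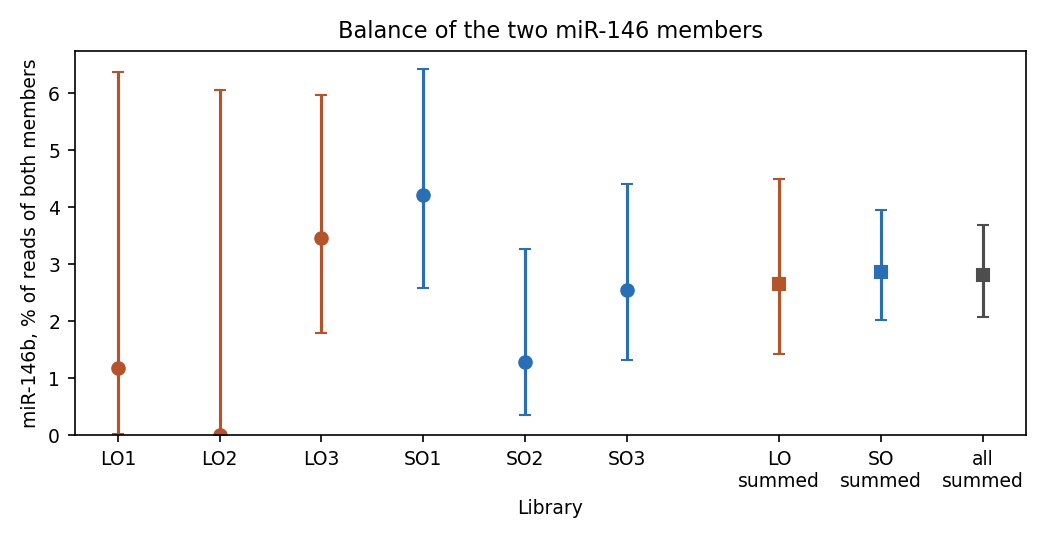
Reads of miR-146b as a percentage of the reads of both members, for each library (circles) and for the reads summed by group and over all libraries (squares), with exact Clopper-Pearson 95% intervals. The single libraries run from 0% to 4.21%, and the summed LO and SO shares are 2.65% and 2.87%.

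The central comparison of the study set LO against SO. It was fitted with limma on log2(RPM + 1) across the 104 miRNAs that passed a filter on low reads, which both members passed, and the false discovery rate (FDR) is Benjamini-Hochberg over all 104. None of the 104 passed an FDR of 0.05 by limma (0.00%), 4 had an unadjusted p under 0.05 (3.85%), and edgeR and limma-voom on recovered reads each called 2 (1.92%) while DESeq2 called 0. Neither member was among any of these calls at FDR 0.05. miR-146a-5p had a log2 fold change of -0.29, LO over SO (SE 0.486, 95% interval -1.24 to 0.67, limma FDR 0.820). That interval spans folds from 0.423 to 1.59, which includes both a lower and a higher level in LO. Without SO replicate 1 its upper limit rose from 0.67 to 1.06 on the log2 scale. In miR-146b the log2 fold change was -1.05 (SE 0.872, interval -2.76 to 0.66, limma FDR 0.780). Both SEs follow limma's trend with abundance over the tested miRNAs and do not measure the member's own spread. Permuting the libraries of each member alone gave an exact two-sided p of 0.4 for both. Group ranges that did not overlap were found for 4 of the 104 tested miRNAs (3.85%) and for neither member.

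Both members had lower means in LO, while the median log2 fold change of the 104 tested miRNAs was 0.29 on the deposited scaling. Set against that median, miR-146a-5p lay at -0.58 and miR-146b at -1.34. With TMM scaling the median of all was 0.05 and the members were at -0.53 and -1.38, which is -0.58 and -1.43 against the median. In these fits the sign was the same under each scaling. limma-voom gave miR-146a-5p an unadjusted p of 0.0484 with an FDR of 0.323, at a log2 fold change of -0.58.

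Single libraries moved both values. Without LO replicate 1, limma gave -0.20 for miR-146a-5p and -0.99 for miR-146b, and the median of all tested miRNAs turned to -0.06, so that miR-146a-5p lay at -0.14 against it in place of -0.58. In edgeR without that library the members lay at -0.22 and -0.25 against the median. Without LO replicate 2, limma gave -0.11 for miR-146a-5p and -0.27 for miR-146b, beside a median of 0.62 for all tested miRNAs, of which 18 (17.3%) passed FDR 0.05, neither member among them. Without LO replicate 3, the LO library with the highest level of both, the values were -0.54 and -1.89. Without SO replicate 1, the SO library with the highest level of both, they were -0.16 and -0.60. Leaving out SO replicate 2, the SO library lowest in both, gave -0.45 and -1.54. The FDR of either member was 0.830 or more in each of the 6 limma fits without 1 library. The smallest unadjusted limma p among them was 0.04996, for miR-146b without LO replicate 3. In edgeR without 1 library, miR-146a-5p had an unadjusted p under 0.05 only without LO replicate 2 (0.0361, FDR 0.188). miR-146b had one only without LO replicate 3 (0.0406, FDR 0.270).

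**Figure D4:**
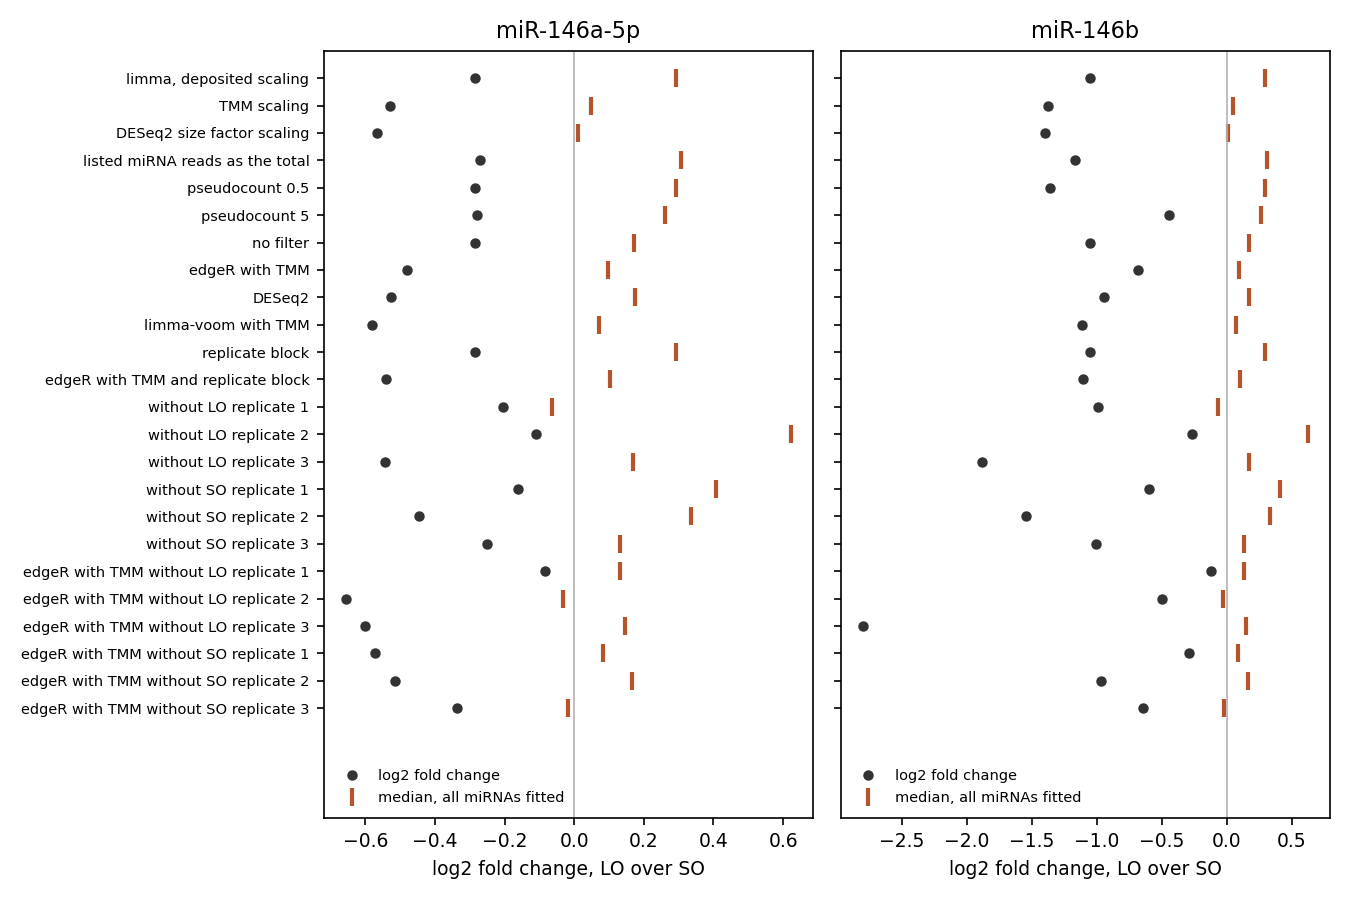
Log2 fold change (LO over SO) of miR-146a-5p (left) and miR-146b (right) under each scaling, tool, pseudocount and left-out library (points), with the median of all miRNAs in the same fit (short vertical bars). Each point lies below 0 and below its median, from -0.66 to -0.08 for miR-146a-5p and from -2.80 to -0.12 for miR-146b.

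The summed level of the family was set almost wholly by miR-146a-5p. It was 148, 128 and 243 RPM in LO replicates 1 to 3 and 248, 162 and 215 RPM in SO replicates 1 to 3. The group means were 173 ± 61.6 and 208 ± 43.7 RPM (SD, n = 3 each), and the ranges of the groups overlapped.

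To see which miRNAs varied alike, log2(RPM + 1) values were centred on each miRNA's own mean, and the root mean square difference over the 6 libraries was taken. The libraries share their scaling and depth, so this is a description. Closest to miR-146a-5p was miR-30a-5p, at a difference of 0.10, with 610, 488 and 803 RPM in LO replicates 1 to 3 and 976, 639 and 764 RPM in SO replicates 1 to 3. The 6 libraries fall in the same order for both, with LO replicate 2 lowest and SO replicate 1 highest. Next came miR-183, a miRNA of sensory cells, at 0.121, and miR-205, the most abundant miRNA of these libraries, at 0.131. The median difference from miR-146a-5p over the 103 other tested miRNAs was 0.627, and miR-146b came 79th at 0.871. The fold changes of miR-30a-5p, miR-183 and miR-205 were -0.33, -0.43 and -0.23 on the log2 scale, beside -0.29 for miR-146a-5p. These miRNAs were picked for a like pattern over the same libraries, so close fold changes follow from the choice.

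For miR-146b no miRNA came as close. The nearest were miR-187 at 0.639, miR-30e-3p at 0.659 and miR-185 at 0.687, beside a median of 1.18, and miR-146a-5p came 12th. With 49 reads in all, much of the miR-146b pattern is within counting error. miR-187 was lowest in LO replicate 2, at 4.33 RPM, and highest in SO replicate 1, at 20.4 RPM, as miR-146b was.

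The other miRNAs of toll-like receptor and NF-kB signalling were described from a list of 12 names, chosen with earlier results of these data known. It covers 13 listed mature forms, of which 8 had enough reads to test. None passed FDR 0.05 in either direction by limma, where the smallest unadjusted p was 0.131, and none was among the calls of edgeR or limma-voom. Without LO replicate 2, limma called let-7e and miR-125a, both higher in LO (FDR 0.0346 each), in a fit that called 18 of the 104 miRNAs (17.3%). Of the 8, 5 had higher and 3 had lower means in LO on the log2 scale, while 72 of all 104 tested miRNAs were higher (69.2%). The 3 include miR-9-1 and miR-9-2, which share 1 mature sequence and so are not separate members. The median log2 fold change of the 8 was 0.08, beside 0.29 for all tested miRNAs. miR-155-5p, the miRNA most often studied with miR-146a in immune cells, had 32 reads in all. It was at 13.9, 0 and 4.21 RPM in LO replicates 1 to 3 and at 2.61, 4.69 and 1.83 RPM in SO replicates 1 to 3. LO replicate 1, its highest library, was among the lower ones for miR-146a-5p. miR-132 and miR-212, a pair made from 1 transcript, had 10 and 2 reads.

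miR-21, an miRNA induced in many inflamed and growing tissues, had means of 267 ± 157 RPM over LO and 218 ± 78.8 RPM over SO (SD, n = 3 each; log2 fold change 0.13, limma FDR 0.936). The cluster of miR-99b, let-7e and miR-125a, which targets toll-like receptor signalling, had log2 fold changes of 0.76, 0.82 and 0.44, with limma FDRs of 0.780 each. miR-125b stood at 0.03. On the same side as the miR-146 members were miR-187, which interleukin-10 induces in monocytes, at -0.79, and miR-9-1 and miR-9-2 at -0.74 and -0.23. The names miR-9-1 and miR-9-2 have identical mature sequences, so their reads cannot be separated. The intervals of all 8 included 0, as those of both miR-146 members did.

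**Figure D5:**
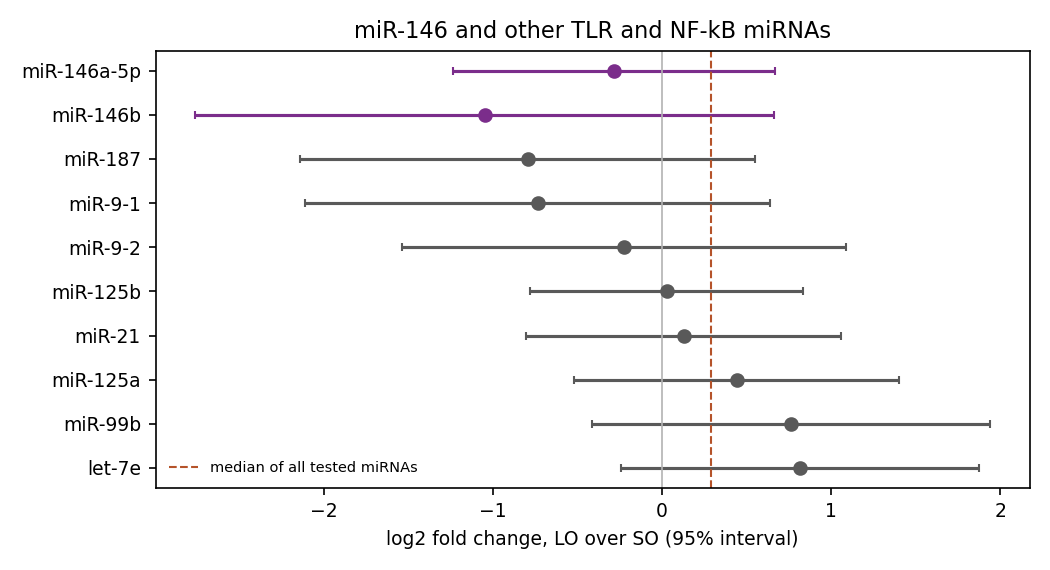
Log2 fold change (LO over SO) with limma 95% intervals for the miR-146 members and the 8 tested miRNAs of toll-like receptor (TLR) and NF-kB signalling; the dashed line is the median of all 104 tested miRNAs, 0.29. Every interval crosses 0, and the points run from -1.05 for miR-146b to 0.82 for let-7e.

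Since miR-146a-5p is abundant in leukocytes, markers of blood and follicle cells were read beside it. The leukocyte list covers 5 listed mature forms of miR-142, miR-150 and miR-155, of which miR-155-3p had 0 reads and none had enough to test; miR-223 was not analysed here. Their summed level was 19.1, 6.5 and 7.02 RPM in LO replicates 1 to 3, from 11, 3 and 10 reads. In SO replicates 1 to 3 it was 58.5, 6.25 and 3.66 RPM, from 112, 12 and 8 reads. Outside SO replicate 1 the sums rest on few reads, so small differences among them carry little weight. SO replicate 1 stood out, with miR-142-3p at 41.8 RPM against 0.457 to 6.5 RPM in the other 5 libraries. The same library had the highest level of both miR-146 members, and the part of leukocyte RNA in that was not tested. SO replicate 3 and LO replicate 3, with 3.66 and 7.02 RPM of leukocyte markers, held 210 and 235 RPM of miR-146a-5p. LO replicate 2 and SO replicate 2, with 6.5 and 6.25 RPM of these markers, held 128 and 159 RPM of miR-146a-5p. LO replicate 1, with 19.1 RPM of the markers, held 146 RPM. Of its 11 marker reads, 8 were miR-155-5p and 2 were miR-142-3p. The summed markers were below miR-146a-5p in every library, and the source of its reads was not tested.

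Erythroid markers (miR-144, miR-451 and miR-486) summed to 4.21 to 5.21 RPM in LO and 1.56 to 4.18 RPM in SO. Each LO sum came from only 2 to 6 reads, and each SO sum from 3 to 8. At such counts the lack of overlap between these ranges carries little weight. Granulosa and cumulus markers summed to 1158, 325 and 764 RPM in LO replicates 1 to 3 and 736, 515 and 392 RPM in SO replicates 1 to 3. This list has 8 listed forms, 4 of them tested and none called by limma with all 6 libraries (miR-31 was called, higher in LO, in the fit without LO replicate 2 that called 17.3% of all tested), led by miR-21, miR-31 and miR-202-5p, and the other 4 had 10 reads or fewer. LO replicate 1, the highest in these markers, had the lowest share of miR-146a-5p among its listed reads, and LO replicate 2 was lowest in both RPM values. Their part in the level of miR-146a-5p was not tested.

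Depth bears on all of these values. The library totals behind the RPM values were 575850, 461505 and 1424130 reads in LO replicates 1 to 3, and 1915218 to 2187987 in SO, so a single read stood for 1.74, 2.17 and 0.702 RPM in those LO libraries and for 0.457 to 0.522 RPM in SO libraries. miR-146a-5p rested on at least 59 reads in each library, and miR-146b on 20 at most.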

How the data were processed

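Per the labels' protocols, RNA of denuded oocytes was isolated with mirVana and made into libraries with the QIAseq miRNA kit. The deposited values are called TPM in the file headers. Each was a whole multiple of 1 step per library whatever the miRNA's length, so the authors' values were read as RPM, and whole reads were recovered by that step for 100% of values above 0 (tolerance 0.01 read). Build Sscrofa10.2 and the tools cutadapt, bcl2fastq, edgeR and Bowtie2 2.2.2 are named, without roles, per the submitters' processing notes. The sources used here do not say what the library total counts or whether molecular identifiers were applied.

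The members and lists were chosen with earlier results of these data known. limma 3.58.1 (R 4.3.3) with an intensity trend was run on log2(RPM + 1), a pseudocount of 1. It covered the 104 of 326 miRNAs that passed filterByExpr on recovered reads, with group as the only term. The size of a change in a low miRNA depends on the pseudocount and the tool. For miR-146b the log2 fold change was -1.05 on this scale, -1.36 with a pseudocount of 0.5 and -0.69 in edgeR with TMM. Alternatives used edgeR 4.0.16, DESeq2 1.42.0 and limma-voom on recovered reads, other scalings and pseudocounts, no filter, a replicate block, and each library left out. Ratios between members were tested by exact permutation. Replicates of a group differed by more than sampling noise (chi-square over degrees of freedom 2.71 to 16.8). In the limma fit of all 6 libraries, SEs, intervals and p-values rest on spread pooled over tested miRNAs by abundance. They do not measure a member's own spread between libraries. The permutation p-values rest on the member's own values. Named besides the members were the tested members of the lists, the 3 miRNAs most alike in pattern, and the neighbours in level; list members with too few reads to test (miR-132, miR-142-3p, miR-155-5p, miR-212 and others) and the precursors miR-676 and miR-148a were chosen after their values were seen.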

Additional observations from a re-analysis of the deposited data

How the results depend on the processing

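Both members stayed lower in LO in each of the 24 alternatives run for each. The limma fits without a filter and with a replicate block, and the permutation, keep the same group means. Their fold change therefore could not differ from the main one, and all alternatives reuse the same libraries. Neither member passed FDR 0.05 in the 23 alternatives that give one. The other is the exact permutation of the single miRNA (p = 0.4 for both). For miR-146a-5p the log2 fold change ran from -0.66 to -0.08 and the FDR from 0.188 to 0.992; for miR-146b from -2.80 to -0.12 and from 0.270 to 0.992. In limma without 1 library the ranges were -0.54 to -0.11 and -1.89 to -0.27. Where a scaling alone moved miR-146a-5p by over 1.5 times, TMM gave -0.53 and DESeq2 size factors -0.57. For miR-146b a pseudocount of 5 RPM gave -0.45. The count of miRNAs called, 0 by limma, was 2 with edgeR and TMM and 2 with limma-voom. It ran from 0 to 18 in limma without 1 library, with 18 without LO replicate 2. In edgeR fits without 1 library, which were added after the data were seen, it ran from 0 to 4, with 1 without LO replicate 2 and 4 without SO replicate 2.

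The log2 ratio of miR-146a-5p to miR-146b over all libraries ran from 5.25 to 6.04 with other reads added or as a difference of log2(RPM + 1), with exact permutation p = 0.0312 in each. Without 1 library it ran from 5.26 to 5.75 with exact permutation p = 0.0625, the smallest that 5 libraries can give. Its difference between LO and SO ran from 0.02 to 1.10 without 1 library, with 0.16 when 1 read and 1.43 when 0.1 read was added, so its size depends on how a count of 0 is treated.

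With the replicate number as a block, limma gave -0.29 (FDR 0.873) for miR-146a-5p and -1.05 (FDR 0.853) for miR-146b, edgeR gave -0.54 and -1.11, and both called 0 miRNAs. The block left the difference of the ratio at 0.56 (exact sign-flip p = 0.5). Same-numbered libraries did not deviate together (correlations across tested miRNAs of -0.34, -0.22 and 0.08). So few pairs cannot exclude a shared animal, day or batch, and the sources used here do not say what the number marks.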
